A study of Mus musculus with 4 samples.

Results

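Glucose uptake and glycolysis were followed through 10 genes: the glucose transporters Slc2a1 and Slc2a3, the enzymes and regulators Hk2, Pfkp, Pfkfb3, Aldoa, Pgk1, Eno1 and Ldha, and the kinase Pdk1. They were found by gene symbol in the array annotation. Of the 10 genes, 9 had at least 1 probe set assigned to that gene alone, 26 probe sets in all, among 18193 genes measured on the array. Eno1 was not analysed here. RNA came from bone marrow-derived dendritic cells (BMDC) of male C57BL/6 mice aged 6 to 8 weeks, and 1 sample was taken per condition. In the live coculture, BMDC were kept with cells of the mouse ovarian surface epithelial line 1D8, 1 tumour cell for 5 BMDC. In the irradiated coculture, the 1D8 cells had first received 50 Gy. In the conditioned medium sample, BMDC were grown with 25% (v/v) supernatant of 1D8 cells. The control BMDC had no contact with 1D8 cells or their medium. All samples shared 7 days of culture in 500 U/ml GM-CSF and a flow sort on the costimulatory protein CD80, so the gate selects CD80-bearing cells and not a lineage. The labels do not say how many animals gave each sample, and 1D8 is a single line.

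Glycolysis splits glucose into pyruvate and yields ATP without oxygen. Glucose enters through facilitative transporters, is trapped by a hexokinase, is committed by phosphofructokinase and is then cleaved and oxidised to pyruvate. Lactate dehydrogenase can reduce pyruvate to lactate, or pyruvate dehydrogenase can convert it to acetyl-CoA inside mitochondria. Activated dendritic cells and macrophages are known to raise glycolysis, and many tumour lines run it at a high rate. Several of these genes are textbook targets of the hypoxia-inducible factors (HIF), whose core DNA element is ACGTG or GCGTG.

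Promoter sequences are shown for 5 genes that cover transport, the first step, a lower step and both fates of pyruvate. Each is the 250 bases before a RefSeq transcript start (GRCm38.p6), 5′ to 3′ on the gene's own strand, with every ACGTG or GCGTG on either strand in capitals (CACGT and CACGC are the reverse complements). Ldha and Pdk1 each have another start in the table, which is not shown, and that of Pdk1 held no match.
Slc2a1, chr4:119108495-119108744, plus strand: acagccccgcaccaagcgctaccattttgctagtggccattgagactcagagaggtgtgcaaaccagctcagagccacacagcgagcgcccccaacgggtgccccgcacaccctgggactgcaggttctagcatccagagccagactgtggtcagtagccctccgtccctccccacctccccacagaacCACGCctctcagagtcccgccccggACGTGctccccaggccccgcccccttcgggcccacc
Hk2, chr6:82774455-82774704, minus strand: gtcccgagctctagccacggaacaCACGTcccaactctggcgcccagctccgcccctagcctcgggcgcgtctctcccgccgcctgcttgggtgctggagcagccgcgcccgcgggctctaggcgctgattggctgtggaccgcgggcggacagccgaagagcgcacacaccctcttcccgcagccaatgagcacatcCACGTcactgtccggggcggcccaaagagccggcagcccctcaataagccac
Pgk1, chrX:106186850-106187099, plus strand: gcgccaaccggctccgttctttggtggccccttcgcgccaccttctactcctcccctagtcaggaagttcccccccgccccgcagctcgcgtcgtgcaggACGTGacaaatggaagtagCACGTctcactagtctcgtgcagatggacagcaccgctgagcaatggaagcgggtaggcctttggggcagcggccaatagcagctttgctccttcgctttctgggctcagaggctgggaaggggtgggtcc
Ldha, chr7:46845554-46845803, plus strand: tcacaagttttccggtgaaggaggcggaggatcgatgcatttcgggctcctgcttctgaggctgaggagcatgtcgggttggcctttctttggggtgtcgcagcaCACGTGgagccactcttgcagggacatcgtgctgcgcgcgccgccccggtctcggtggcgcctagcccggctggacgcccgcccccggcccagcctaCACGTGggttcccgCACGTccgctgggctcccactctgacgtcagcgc
Pdk1, chr2:71872974-71873223, plus strand: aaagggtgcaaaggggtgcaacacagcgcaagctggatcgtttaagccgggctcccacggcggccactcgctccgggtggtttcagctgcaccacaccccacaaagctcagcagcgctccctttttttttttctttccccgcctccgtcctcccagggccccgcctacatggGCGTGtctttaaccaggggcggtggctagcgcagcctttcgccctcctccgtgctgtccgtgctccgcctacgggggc
The Ldha window held 5 matches to ACGTG, 4 of them as overlapping pairs on opposite strands within the palindrome CACGTG, and 1 alone. Hk2 and Pgk1 held 2 matches each, Slc2a1 held 1 ACGTG and 1 GCGTG, and Pdk1 held 1 GCGTG. The matches lay 61 and 36 bases before the start in Slc2a1, 226 and 52 in Hk2, 150 and 131 in Pgk1, and 78 in Pdk1, counted from the first capital of each match as printed. Promoters were found for 9 of the 10 genes, with 16 starts, and Slc2a3 is named only. At least 1 start carried ACGTG in 6 of the 9 genes, against 18.5% of 27025 genes with a promoter in the same table, and 8 of their 16 starts did, against 16.6% of 32851 starts. Either motif was found in 9 of the 9 genes, against 41.5% of all genes, and in 14 of the 16 starts, against 38.6% of all starts. The members had more starts per gene than the table, which raises a count per gene. A match describes the letters of the window and is not a measured site.

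Values are MAS5 signals on a linear scale. Signals under a floor of 44.3, the median of all signals, were raised to the floor before ratios were taken, and 2-fold was the threshold for counting a gene in either direction. Where a gene had several probe sets, the brightest by mean log2 signal stood for it. With 1 array per condition there was no replicate error, no test and no p-value, and higher and lower describe these arrays only. The spread of log2 ratios between probe sets of the same gene, over 4092 genes, covers disagreement between probe sets only and holds no variation between samples. It was estimated from the median absolute deviation of the difference between the 2 brightest probe sets of a gene, scaled to an SD. Strongly discordant pairs therefore hardly move it. This robust SD was 0.41, 0.38 and 0.36 for the live coculture, the irradiated coculture and the conditioned medium against the control, 0.21 for each coculture against the conditioned medium and 0.19 between the cocultures. The 3 comparisons with the control share the control array, so their values stand side by side and are not independent.

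Epithelial marker signal was higher in the cocultures, and 1D8 cells alone were not analysed here. Of 19 epithelial and mesothelial markers, 7 in the live and 9 in the irradiated coculture were at least 2-fold higher than in the control, and none was in conditioned medium. Of all genes, 3.39% (live), 3.52% (irradiated) and 2.31% (conditioned medium) were. The summed signal of the 19 markers was 3464 in the live coculture and 4159 in the irradiated coculture, with 1136 in conditioned medium and 747.2 in the control. Krt7, Cldn7, Dsp and Esrp1 stayed under the floor throughout and no marker was at exactly 0. The keratin gene Krt19 had 569.7 in the live coculture and 767.4 in the irradiated coculture, against 22.2 in conditioned medium and 8.6 in the control, both under the floor, and Krt8 had 386.8 and 458.0 in those cocultures against 64.1 and 66.1. Cdh1, E-cadherin, had 930.5 in the live coculture and 1102 in the irradiated coculture, with 338.0 in conditioned medium and 189.5 in the control. Epcam had 107.2 and 239.0 in the live and irradiated cocultures, with 168.5 in conditioned medium and 103.8 in the control. The summed signal of 14 leukocyte and dendritic cell markers was 26954 in the live coculture and 29336 in the irradiated coculture, with 35049 in conditioned medium and 36351 in the control, with none under the floor. Ptprc, the pan-leukocyte antigen CD45, had 2722, 2976 and 3265 in the live coculture, the irradiated coculture and conditioned medium, against 2974 in the control, and Itgax, the integrin CD11c of dendritic cells, had 1921, 1388 and 2394 against 2534. Other genes of the list were further apart. Cd80, the sort marker, was 4.42-fold, 3.81-fold and 2.35-fold higher than the control in the live coculture, the irradiated coculture and conditioned medium, and Itgam, the integrin CD11b, 2.74-fold, 3.54-fold and 2.64-fold higher. H2-Eb1, an MHC class II chain, was 3.15-fold, 2.57-fold and 1.20-fold lower. The 12 neutrophil markers summed to 3831, 4541 and 8350.1 in those 3 samples against 8390.4 in the control, of which Mmp8 made up 2635, 3102 and 6902 against 5677. Of those 12 markers, 6 in each coculture and 4 in conditioned medium (S100a9, Ctsg, Ngp and S100a8) were at least 2-fold lower than in the control. Of all genes, 2.24% (live), 2.26% (irradiated) and 1.42% (conditioned medium) were. The 10 macrophage markers summed to 27306, 29675 and 32421 against 34779. The part of other cells in the ratios below was not tested. In these bulk samples, fewer cells of a type and less RNA per cell cannot be told apart.

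Slc2a1 encodes GLUT1, the widely expressed basal glucose transporter. Its signal was 2214 in the live coculture and 2659 in the irradiated coculture, with 568.5 in conditioned medium and 591.5 in the control (probe set 1434773_a_at). Both cocultures stood well above the other arrays, which lay close together. The ratio to the control was 3.74-fold in the live and 4.50-fold in the irradiated coculture, and conditioned medium was 1.04-fold lower. The 2 other probe sets gave the same picture, at 4.66-fold and 4.08-fold in the live coculture and 5.12-fold and 4.87-fold in the irradiated coculture. Among all genes, Slc2a1 ranked 127 from the top for live coculture over control and 46 for irradiated coculture over conditioned medium.

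Slc2a3 encodes GLUT3, a high-affinity transporter of neurons and leukocytes. Its array order was the opposite: 142.9 in the live coculture and 110.9 in the irradiated coculture, with 303.8 in conditioned medium and 208.4 in the control (1437052_s_at). Conditioned medium was the highest array and the irradiated coculture the lowest. No difference from the control reached 2-fold, at 1.46-fold lower in the live coculture, 1.88-fold lower in the irradiated coculture and 1.46-fold higher in conditioned medium. Against conditioned medium it was 2.13-fold lower in the live and 2.74-fold lower in the irradiated coculture, but not 2-fold lower as a mean over its probe sets (log2 ratios of -0.55 and -0.71). Both this probe set and the second one above the floor are of types that can hybridise to related transcripts. The second had the same order of arrays, with 71.6 and 59.2 in the live and irradiated cocultures against 128.3 in conditioned medium and 84.0 in the control. Its ratio to conditioned medium was 1.79-fold lower in the live and 2.17-fold lower in the irradiated coculture. The other 2 probe sets of Slc2a3 were dim, with 1 exceeding the floor on 1 array only and the other on none. Both enter the mean over probe sets.

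**Figure D1:**
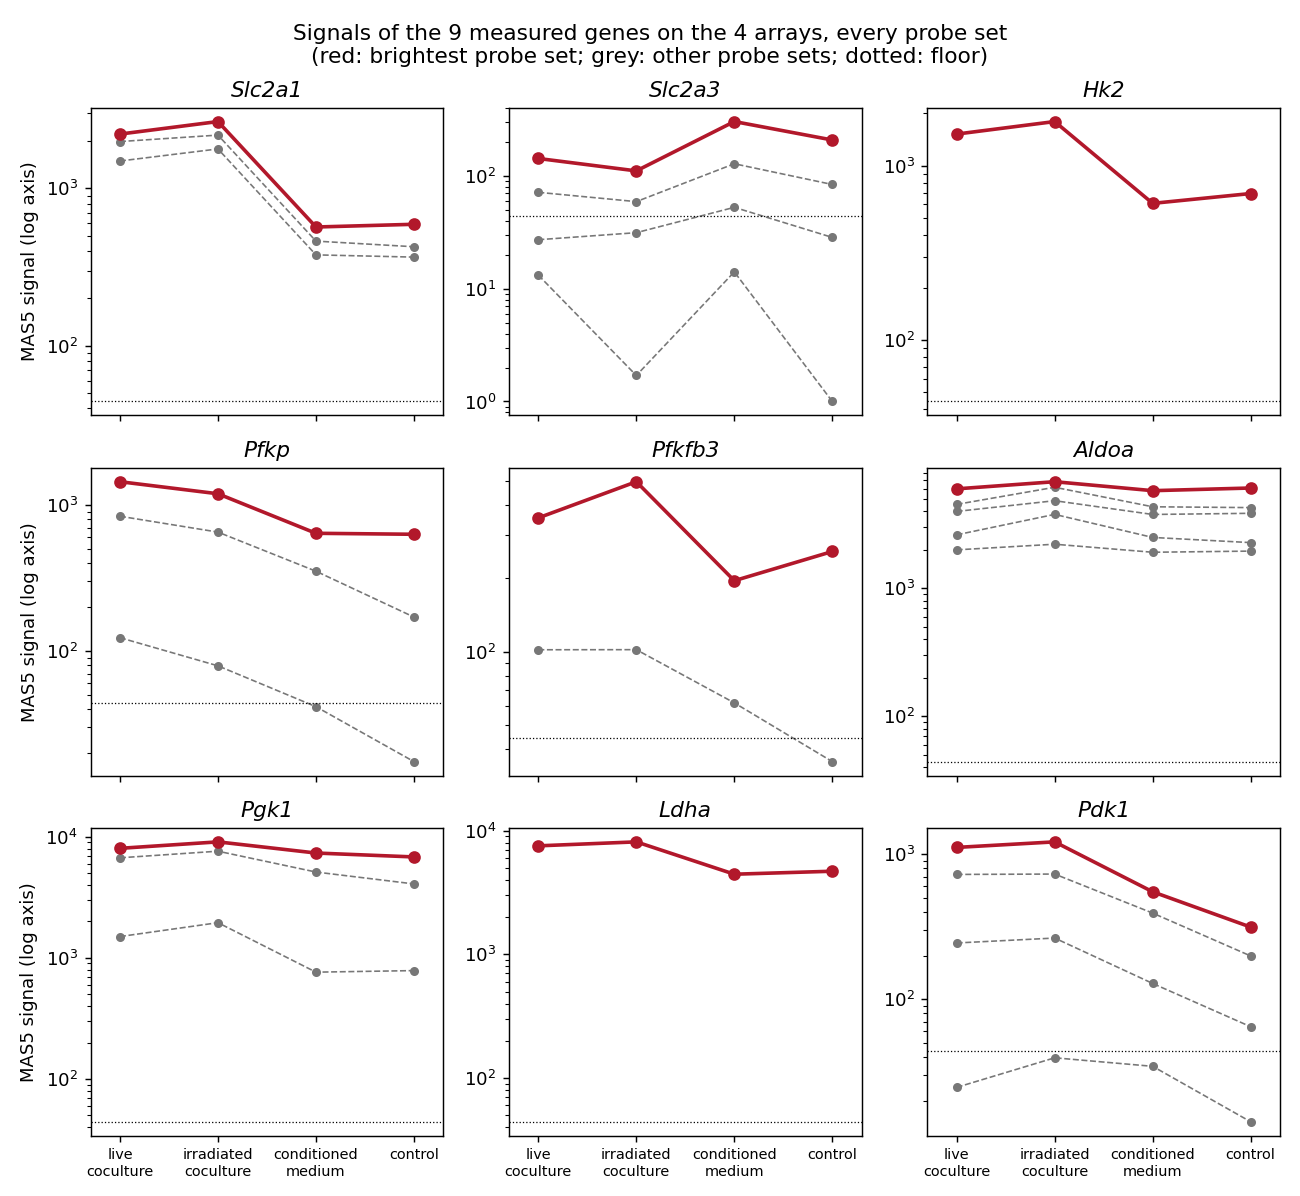
MAS5 signal (log axis) of every probe set of the 9 measured genes on the 4 arrays, 1 array per condition, so there are no error bars; the red line is the brightest probe set, grey dashed lines are others and the dotted line is the floor of 44.3. Slc2a1 (2214 and 2659 in the cocultures, 568.5 in conditioned medium, 591.5 in the control) and Slc2a3 (142.9 and 110.9, 303.8, 208.4) run in opposite directions.

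Hk2 encodes the inducible hexokinase that phosphorylates glucose and can bind mitochondria. Its 1 probe set (1422612_at) had 1522 in the live coculture and 1797 in the irradiated coculture, with 608.8 in conditioned medium and 693.3 in the control. That made it 2.20-fold higher than the control in the live and 2.59-fold higher in the irradiated coculture, and 1.14-fold lower in conditioned medium. Pfkp, the platelet-type phosphofructokinase of the committed step, had 1442 in the live coculture and 1193 in the irradiated coculture, with 639.7 in conditioned medium and 629.9 in the control (1416069_at). It was 2.29-fold higher in the live coculture and 1.89-fold higher in the irradiated coculture, the second just under the threshold. A second probe set of Pfkp had larger ratios of 4.90-fold and 3.82-fold, and 2.06-fold in conditioned medium, so the size of the difference depended on the probe set. Pfkp was 1.21-fold lower in the irradiated than in the live coculture, and its other 2 probe sets were also lower there.

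Pfkfb3 makes fructose 2,6-bisphosphate, the strongest known activator of phosphofructokinase. Its signal was 354.0 in the live coculture and 498.0 in the irradiated coculture, with 195.7 in conditioned medium and 257.8 in the control (1416432_at). By this probe set the irradiated coculture was highest and conditioned medium lowest, and no ratio to the control reached 2-fold, with 1.37-fold higher in the live and 1.93-fold higher in the irradiated coculture. Its second probe set, under the floor in the control, was at least 2.30-fold higher than the control in both the live and the irradiated coculture. It had 61.8 in conditioned medium against 35.5 in the control, so the probe sets differed in direction there, and as a mean over both the log2 ratio of conditioned medium to the control was 0.04, against -0.40 for the brightest.

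Aldoa, the aldolase that splits fructose bisphosphate, was closest to the control of the 9 genes in each coculture by the brightest probe set. As means over probe sets in the irradiated coculture, Slc2a3 was closer, at a log2 ratio of -0.35 against 0.39 for Aldoa. The Slc2a3 mean includes its dim probe sets, under the floor on both arrays, whose ratios were set to 0. Those of Slc2a3 above the floor had -0.91 and -0.50. The signals of Aldoa were 5966 in the live coculture and 6784 in the irradiated coculture, with 5774 in conditioned medium and 6057 in the control (1416921_x_at). All 5 of its probe sets are of a type that can hybridise to related transcripts. Their ratios to the control lay between 1.02-fold lower and 1.15-fold higher in the live coculture and between 1.12-fold and 1.66-fold higher in the irradiated coculture.

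Pgk1 encodes phosphoglycerate kinase, the first ATP-producing step. Its brightest probe set (1438640_x_at) had 8038 in the live coculture and 9088 in the irradiated coculture, with 7352 in conditioned medium and 6824 in the control, ratios of 1.18-fold and 1.33-fold for the cocultures. Dimmer probe sets of Pgk1 gave larger ratios. The brightest and the dimmest are of a type that can hybridise to related transcripts, and the second (1417864_at) is not. The second had 1.64-fold in the live and 1.86-fold in the irradiated coculture. The dimmest had 1501 in the live coculture and 1954 in the irradiated coculture, with 762.6 in conditioned medium and 785.6 in the control, or 1.91-fold and 2.49-fold for the cocultures. The probe sets of Pgk1 did not agree on whether the 2-fold threshold was reached in the irradiated coculture.

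Ldha encodes the lactate dehydrogenase subunit that favours lactate. Its 1 probe set (1419737_a_at) had 7522 in the live coculture and 8099 in the irradiated coculture, with 4436 in conditioned medium and 4690.2 in the control. Both cocultures were higher, 1.60-fold and 1.73-fold, below the threshold. Pdk1 encodes the kinase that inhibits pyruvate dehydrogenase. Its signal was 1115 in the live coculture and 1218 in the irradiated coculture, with 551.3 in conditioned medium and 314.7 in the control (1423747_a_at). Relative to the control, the cocultures were 3.54-fold (live) and 3.87-fold (irradiated) higher and conditioned medium was 1.75-fold higher. By the brightest probe set, Pdk1 had the largest conditioned medium ratio of the 9 genes, and its 2 other probe sets above the floor gave 1.98-fold and 1.99-fold there.

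Against the control, 4 of 9 genes (Slc2a1, Pdk1, Pfkp and Hk2) were at least 2-fold higher in the live coculture, where 3.39% of all genes were, and 4.68% of genes above the floor on both arrays. In the irradiated coculture 3 of 9 were (Slc2a1, Pdk1 and Hk2), where 3.52% of all genes and 4.77% of those above the floor were. In conditioned medium 0 of 9 were, where 2.31% of all genes were, and 3.39% of those above the floor. None of the 9 was 2-fold lower in these comparisons, where 2.24% (live), 2.26% (irradiated) and 1.42% (conditioned medium) of all genes were, and 3.3%, 3.37% and 2.06% of those above the floor. The median log2 ratio of the 9 genes was 0.68 in the live coculture and 0.92 in the irradiated coculture, with -0.06 in conditioned medium, against 0.00 for all genes in each and -0.04, -0.05 and 0.00 for genes above the floor. As means over probe sets, Pfkp and Pfkfb3 also passed the threshold in the irradiated coculture, at log2 ratios of 1.23 and 1.08, which made 5 of 9. The genes just inside the threshold were Hk2 in the live coculture, at a log2 ratio of 1.13, and just outside it Pfkfb3 and Pfkp in the irradiated coculture, at 0.95 and 0.92.

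Against conditioned medium, 4 of 9 genes were at least 2-fold higher in the live coculture (Slc2a1, Hk2, Pfkp and Pdk1), where 1.78% of all genes and 2.25% of those above the floor were, and 4 of 9 in the irradiated coculture (Slc2a1, Hk2, Pfkfb3 and Pdk1), where 1.99% and 2.61% were. Slc2a3 was the 1 gene that was 2-fold lower in both, where 1.14% (live) and 1.24% (irradiated) of all genes were, and 1.54% and 1.77% of those above the floor. Slc2a1 was 3.89-fold higher in the live and 4.68-fold higher in the irradiated coculture, Hk2 2.50-fold and 2.95-fold higher, and Pdk1 2.02-fold and 2.21-fold higher. As a mean over its probe sets Pdk1 was under 2-fold here, with log2 ratios of 0.71 and 0.77. Both cocultures lay above both other arrays for 7 of 9 genes, the exceptions being Slc2a3 and Aldoa, and 19.0% of the 9835 genes over the floor on every array did so. Both lay below for Slc2a3, as for 25.9% of those genes.

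**Figure D2:**
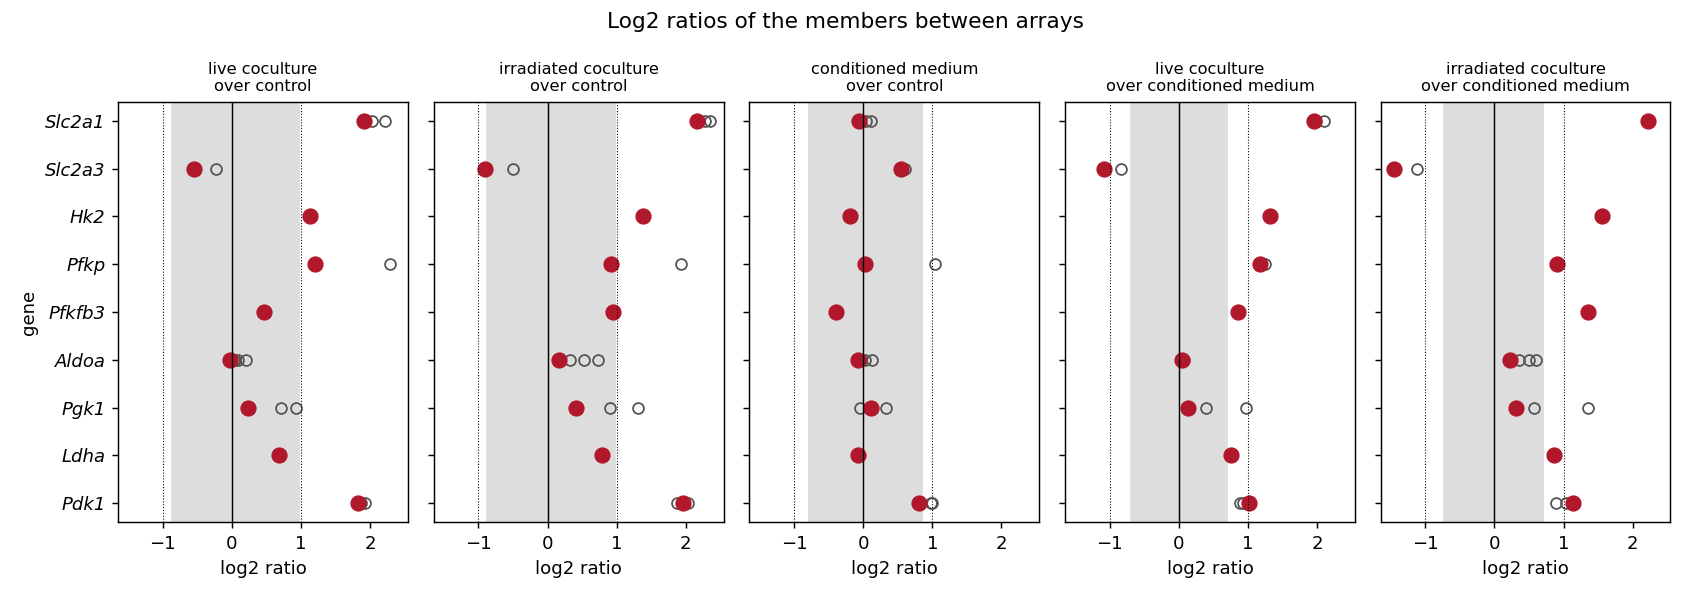
Log2 ratios between arrays for the 9 measured genes; filled red points are the brightest probe set, open circles other probe sets over the floor on every array, dotted lines mark 2-fold and the grey band spans the 5th to 95th percentile of genes above the floor on both arrays. By the brightest probe set, Slc2a1, Hk2 and Pdk1 lie at or right of the 2-fold line in the 4 coculture panels, and Slc2a3 lies left of zero in them.

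Between the cocultures, no member was 2-fold apart. Of all genes, 0.302% were 2-fold higher in the irradiated coculture and 0.374% were 2-fold lower, and of those above the floor 0.335% and 0.419%. The irradiated coculture was higher for 7 of 9 genes at any size, against 50.1% of the genes over the floor on every array. That share covers genes of every brightness and was not matched to the members. The median log2 ratio of the 9 genes was 0.18, and 0.05 under quantile normalization. Pfkfb3 had the largest ratio, 1.41-fold higher in the irradiated coculture by its brightest probe set, but its second had 102.1 in the irradiated coculture against 102.0 in the live coculture. As a mean over probe sets the log2 ratio of Pfkfb3 was 0.25, below that of Aldoa at 0.32. Slc2a1 was 1.20-fold higher. Pfkp and Slc2a3 were lower, by 1.21-fold and 1.29-fold. Summed marker signals were also higher in the irradiated than in the live coculture for every marker list. They were 4159 against 3464 for epithelial and mesothelial markers and 29336 against 26954 for leukocyte and dendritic cell markers. For neutrophil markers they were 4541 against 3831, and for macrophage markers 29675 against 27306. Any link of these sums to the members was not tested.

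The other enzymes of the pathway were read from a list of the pathway's genes. Of 18 measured, 3 were at least 2-fold higher in the live coculture (Pklr, Tpi1 and Aldoc) and 3 in the irradiated coculture (Aldoc, Tpi1 and Hk1). In conditioned medium none was, and none was 2-fold lower on any of these arrays. Of all genes, 3.39% (live), 3.52% (irradiated) and 2.31% (conditioned medium) were higher, and 2.24%, 2.26% and 1.42% lower. The median log2 ratios of the 18 were 0.13, 0.25 and 0.00 in the same order. Tpi1, triosephosphate isomerase, had 4448 in the live coculture and 5043 in the irradiated coculture, with 2097 in conditioned medium and 2178 in the control. It was 2.04-fold and 2.32-fold higher in the cocultures, and its 2 other probe sets had log2 ratios of 0.99 and 1.17 in the live coculture and 1.21 and 1.33 in the irradiated coculture. Aldoc, another aldolase, had 771.3 in the live coculture and 899.1 in the irradiated coculture, with 683.3 in conditioned medium and 378.9 in the control. Pklr, the liver and red cell pyruvate kinase, was dim, with 119.4 in the live coculture and 79.0 in the irradiated coculture, 79.3 in conditioned medium and 53.5 in the control. Hk1, the constitutive hexokinase, had 1390 in the live coculture and 1607 in the irradiated coculture, with 881.7 in conditioned medium and 797.5 in the control, and its other probe set had log2 ratios of 1.69, 1.60 and 0.78. Hk3, the hexokinase of myeloid cells, had 1071, 1061 and 1067 in the live coculture, the irradiated coculture and conditioned medium, against 1572 in the control, so the isozymes did not run together. Pfkl, the liver-type phosphofructokinase, had 2005 in the live coculture and 2256 in the irradiated coculture, with 1237 in conditioned medium and 1293 in the control. The muscle-type Pfkm, the mutase Pgam1 and the pyruvate kinase Pkm did not reach 2-fold on any array, Pkm being 1.21-fold and 1.38-fold higher in the live and irradiated cocultures. The isozymes Hkdc1, Pgk2 and Ldhc stayed under the floor throughout, and Eno2 and Eno3 were dim, at most 49.4 and 122.1. Ldhb, the lactate dehydrogenase subunit of heart, had 239.1 in the live coculture and 308.4 in the irradiated coculture, with 337.7 in conditioned medium and 429.4 in the control, opposite to Ldha in the cocultures. Gapdh was seen only in 3 control probe sets, which were left out of the gene counts and whose ratios to the control were 1.12 to 1.27 for the live coculture, 1.21 to 1.38 for the irradiated coculture and 1.08 to 1.19 for conditioned medium.

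Among other transporters, Slc2a6, a lysosomal sugar transporter, was 2.03-fold and 2.38-fold lower in the live and irradiated cocultures, with 165.9 and 141.1 against 336.3 in the control. Slc2a8 was 2.57-fold higher in conditioned medium, with 371.2 against 144.5. The 7 other transporters measured were under 2-fold, many near or under the floor. The lactate exporter Slc16a3 (MCT4) had 1828 in the live coculture and 1805 in the irradiated coculture, with 513.3 in conditioned medium and 333.4 in the control. It was 5.48-fold and 5.41-fold higher in the cocultures, more than any of the 9 members at the brightest probe set, and 1.54-fold higher in conditioned medium. Slc16a8, a carrier of the retinal epithelium, was at least 2.10-fold higher in the live coculture, with 93.1 against 42.1 in the control. Slc16a1, the other widely expressed monocarboxylate carrier, was 1.70-fold and 1.34-fold higher in the cocultures. Bsg, the chaperone of these carriers, was 1.37-fold and 1.78-fold higher. Mpc1, a subunit of the mitochondrial pyruvate carrier, was 1.47-fold and 1.30-fold lower.

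Besides Pdk1, none of 11 measured pyruvate dehydrogenase subunits, kinases and phosphatases reached 2-fold against the control by its brightest probe set. A second probe set of Pdha1, the catalytic alpha subunit, had 481.2 in the live coculture and 483.9 in the irradiated coculture, with 464.7 in conditioned medium and 138.8 in the control, log2 ratios of 1.79, 1.80 and 1.74. A second probe set of Pdp1, a phosphatase of the complex, had a log2 ratio of -1.07 in the irradiated coculture. Pdk3 had 332.1 in the live coculture and 356.8 in the irradiated coculture, with 415.1 in conditioned medium and 253.0 in the control, and Pdk2 and Pdk4 were dim. Of the 3 other enzymes of fructose 2,6-bisphosphate measured, none was 2-fold apart, and Pfkfb4 had 402.0, 406.8 and 427.6 in the live coculture, the irradiated coculture and conditioned medium, against 381.8 in the control.

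**Figure D3:**
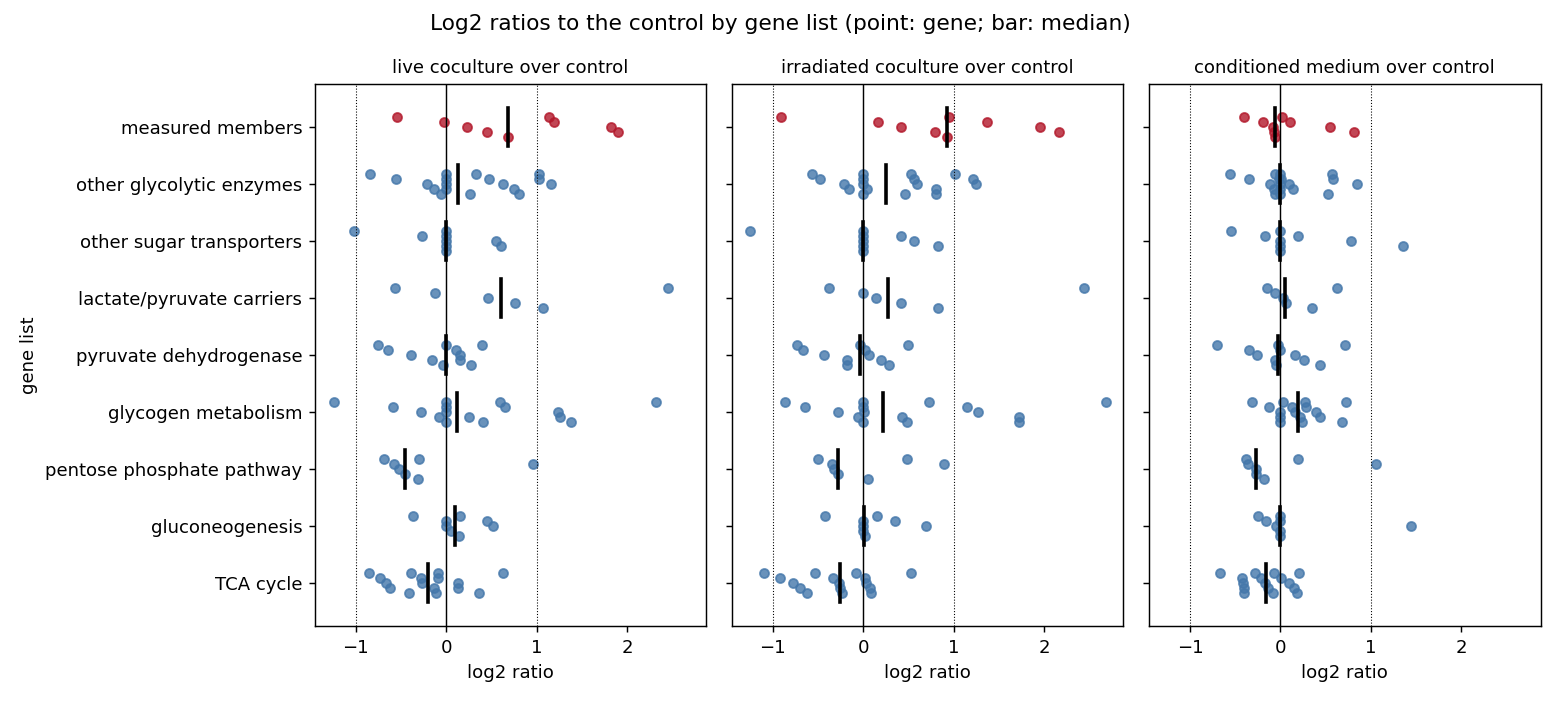
Log2 ratio to the control (x axis) of each gene in 9 lists (rows), for the live coculture, the irradiated coculture and the conditioned medium; black bars are medians and dotted lines mark 2-fold. The measured members have medians of 0.68, 0.92 and -0.06, the other glycolytic enzymes 0.13, 0.25 and 0.00, and the tricarboxylic acid cycle (TCA) -0.20, -0.26 and -0.15.

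Of 16 regulators measured, 3 were at least 2-fold higher in the live coculture (Myc, Mlxipl and Egln1), 3 in the irradiated coculture (Myc, Egln1 and Hif1a) and 1 in conditioned medium (Txnip). Of all genes, 3.39%, 3.52% and 2.31% were. None of the 16 was 2-fold lower, and their median log2 ratios were -0.0001, 0.01 and -0.16. In each coculture 8 of 16 lay above the control at any size. These counts are by the brightest probe set. A dimmer probe set of Arnt had log2 ratios of 1.28 (live), 1.36 (irradiated) and 1.47 (conditioned medium), and another 0.09, 0.44 and -0.06. In the same order, a dimmer probe set of Sp1 had 1.38, 0.77 and 1.04, and another 0.10, 0.12 and 0.32. The dimmer probe set of Txnip above the floor had 0.37, 1.22 and 1.98. Egln2 was 1.59-fold and 1.70-fold lower in the live and irradiated cocultures, and Hif1an 1.60-fold and 1.58-fold lower. Hif1a, the oxygen-labile subunit of HIF-1, had 2768 in the live coculture and 4579 in the irradiated coculture, with 2345 in conditioned medium and 1748 in the control. Ratios to the control were 1.58-fold (live), 2.62-fold (irradiated) and 1.34-fold (conditioned medium). A second probe set had log2 ratios to the control of 0.76, 1.69 and 0.67 and another 3.80, 4.40 and 3.34. The direction was shared and the size was not, and the control signal of the last probe set was 53.4, near the floor. Against conditioned medium these probe sets of Hif1a lay closer together. Their log2 ratios were 0.97, 1.02 and 1.07 in the irradiated coculture and 0.24, 0.09 and 0.46 in the live coculture. Myc, a transcription factor that drives Ldha and Hk2 in many cells, had 536.0 in the live coculture and 437.7 in the irradiated coculture, with 86.2 in conditioned medium and 101.6 in the control. Mlxipl, the glucose-responsive factor ChREBP, had 165.1 in the live coculture and 81.8 in the irradiated coculture, with 51.0 in conditioned medium and a control signal under the floor, so it was at least 3.73-fold and 1.85-fold higher in the cocultures. Egln1, an oxygen sensor that marks HIF for destruction and is itself a HIF target, was 2.26-fold and 2.74-fold higher in the cocultures. Txnip, which lowers glucose uptake and is induced by glucose, had 1353 in the live coculture and 2498 in the irradiated coculture, with 3897 in conditioned medium and 1427 in the control, 2.73-fold higher in conditioned medium.

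The spread of ratios differed with brightness, but not steadily. For irradiated coculture over control, the 5th to 95th percentile of log2 ratios ran from -0.91 to 1.26 over 6877 probe sets with a mean signal of 200 to 1000, from -0.98 to 1.24 over 1504 probe sets of 1000 to 4000 and from -0.62 to 1.02 over 262 probe sets above 4000. For 7743 probe sets with a mean signal up to 200 it ran from -0.80 to 1.04. Aldoa, Pgk1 and Ldha, the members with the highest signals, lay within the band for all their probe sets above 4000. Among member probe sets over the floor on every array, those of Slc2a1, Hk2 and Pdk1 lay above the band of their range. The second probe set of Pfkp and the dimmest of Pgk1 also did. The brightest of Slc2a3 lay below its band. The largest signal on the irradiated coculture array was 11111.

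**Figure D4:**
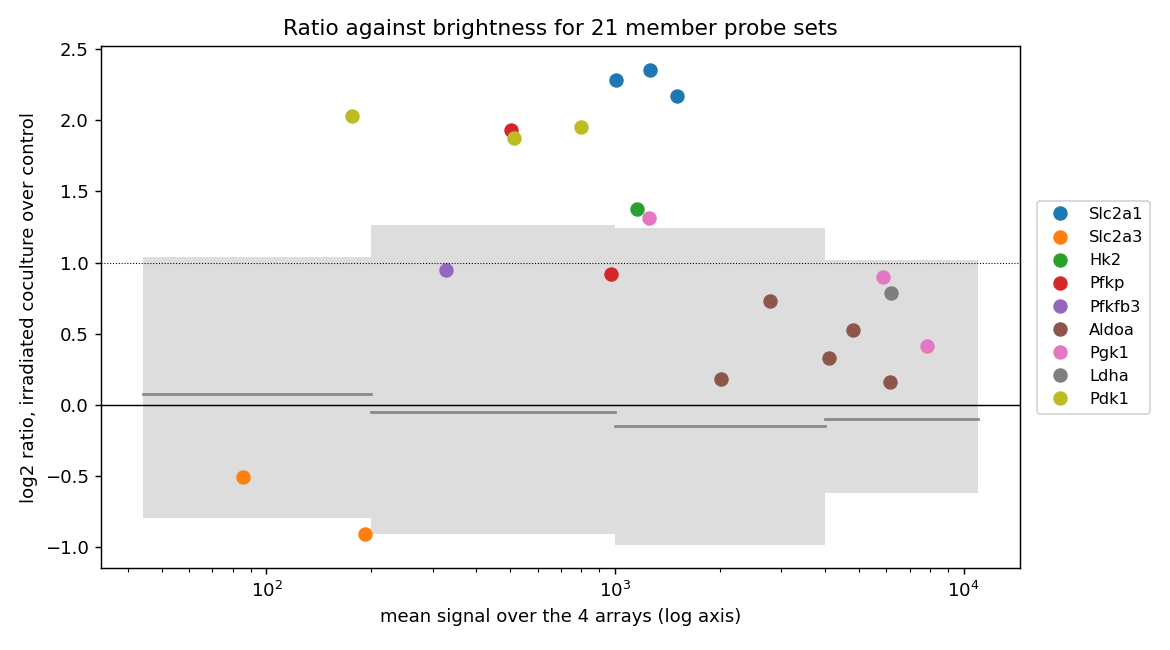
Log2 ratio of irradiated coculture over control against mean signal over the 4 arrays (log axis), for the 21 member probe sets over the floor on every array; the grey band spans the 5th to 95th percentile and the grey line the median of all probe sets in 4 ranges of signal. Within Pgk1, the dimmest of its 3 probe sets has the largest ratio, 1.31, against 0.41 for the brightest.

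Genes outside the lists with the profile most like the median of the 9 members were ranked by Euclidean distance over the 3 log2 ratios to the control, among 9384 genes over the floor on every array, after leaving out listed genes and symbols of clones and gene models. The 5 nearest were Thap4, Lrrfip1, Isca1, Pcnx and Impdh1, with distances of 0.06, 0.06, 0.09, 0.09 and 0.14. Thap4 had 385.9 in the live coculture and 451.5 in the irradiated coculture, with 227.2 in conditioned medium and 233.2 in the control. The 3 ratios share the control array.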

How the data were processed

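Affymetrix arrays were read once for each of 4 conditions. The deposited intensity values are 1 MAS5 signal per probe set on a linear scale, made by the authors with GCOS 1.4 and MAS5, per the submitters' processing notes. The scaling target is not given in the sources used here. The 2% trimmed mean was 150.0 on every array, so signals were used unscaled, with a floor at the 50th percentile (44.3). Medians were 38.7 to 46.8, and 58.8% to 62.6% of genes exceeded the floor.

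Of 45101 probe sets, 64 Affymetrix controls were left out, 34945 were assigned to 1 gene, 932 to several and 9160 to none here. Symbols matched RefSeq (GRCm38.p6) through Entrez identifiers for 34741 and 0 were replaced. Promoters are from RefSeq. Python 3.11.15, numpy 2.4.6, pandas 2.3.3 and matplotlib 3.10.9 were used. The steps were checked on simulated data. Precision is limited by 1 array per condition.

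Members, lists, floor and threshold were chosen with earlier results of these data known. Named genes are all members, their isozymes, Hif1a, Myc, up to 6 genes per list at least 2-fold apart, chosen marker genes and the 5 most similar genes; other named genes, such as Pkm, Pgam1, Bsg, Mpc1 and Slc16a1, were chosen after their values were seen. Alternatives were floors at the 25th and 75th percentiles, quantile normalization, median centring, means over probe sets and a 3-fold threshold. The removal of probe sets of suffix _x_at or _s_at was added after seeing the data.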

Additional observations from a re-analysis of the deposited data

How the results depend on the processing

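Of 54 log2 ratios of the 9 genes over 6 comparisons, 17 were at least 2-fold in either direction. The shares of all genes are given above for each comparison. None of the 17 reversed its sign under any of the alternatives run. The 2 other floors, quantile normalization and median centring left the number of members at least 2-fold higher as reported in all 6 comparisons. With a 3-fold threshold the count was 2 in the live coculture over control, against 4 as reported, 2 in the irradiated coculture over control, against 3, 1 in the live coculture over conditioned medium, against 4, and 1 in the irradiated coculture over conditioned medium, against 4. A stricter threshold cannot raise the share of all genes either, and that share was not taken at 3-fold. With the mean over probe sets the count for irradiated coculture over control was 5, against 3, since Pfkp (1.23) and Pfkfb3 (1.08) passed. The lower Slc2a3 in cocultures against conditioned medium was under 2-fold with the floor at the 75th percentile (-0.97 in both), as the mean over probe sets (-0.55 live, -0.71 irradiated) and without probe sets of suffix _x_at or _s_at (-0.25 in both), where 1 dim probe set remained above the floor on 1 array. Aldoa had no value under that last setting. Pgk1 over the control was 0.72 in the live and 0.90 in the irradiated coculture there, against 0.24 and 0.41 as reported. Pdk1 in the cocultures over conditioned medium was 0.71 and 0.77 as the mean over probe sets, 1 of which lay under the floor on all arrays. Its 2 other probe sets above the floor were also under 2-fold in the live coculture, at 0.89 and 0.93. In the irradiated coculture they had 0.89 and 1.04. Centring put the median of genes above the floor at -0.16 for live coculture over control (-0.04 as reported), -0.12 for irradiated coculture over control (-0.05) and -0.11 for conditioned medium over control (0.00). Small ratios changed sign under quantile normalization (Aldoa, live coculture over control, 0.17, and Ldha, conditioned medium over control, 0.04, and irradiated over live coculture, -0.01), under centring (Pfkp -0.09 and Pgk1 -0.01 in conditioned medium over control) and as means over probe sets (4 ratios). No paired analysis was possible because each condition has 1 sample, and for the same reason no sample could be left out.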

Other observations

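Glycogen metabolism stores and releases the same glucose phosphates. Of 16 genes measured, 4 were at least 2-fold above the control in the live coculture and 1 at least 2-fold below it. In the irradiated coculture 5 were above and none below. Of all genes, 3.39% (live) and 3.52% (irradiated) were above, and 2.24% and 2.26% below. The median log2 ratio of the list was 0.13 with live coculture, 0.22 with irradiated coculture and 0.19 with conditioned medium, against 0.00 for all genes. Gys1, glycogen synthase, had 469.9 in the live coculture and 604.6 in the irradiated coculture, with 127.7 in conditioned medium and 94.4 in the control, or 4.98-fold and 6.40-fold for the cocultures. Pgm1, which links glucose 1-phosphate and 6-phosphate, was 2.61-fold and 3.30-fold higher by the brightest probe set, but the other had log2 ratios of -0.09 and 1.39. Ppp1r3b, a glycogen-targeting subunit of protein phosphatase 1, was 2.36-fold and 3.31-fold higher, and Gbe1, the branching enzyme, 2.39-fold and 2.21-fold higher. Gyg, the glycogenin primer of glycogen, was 2.36-fold lower in the live coculture, and Pygl, the liver glycogen phosphorylase, was 2.41-fold higher in the irradiated coculture.

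In the pentose phosphate pathway none of 7 genes was 2-fold apart in either coculture and the median log2 ratios were -0.45 in the live and -0.28 in the irradiated coculture, with Rpe 2.09-fold higher in conditioned medium by its brightest probe set and at a log2 ratio of 0.27 by the other. In the tricarboxylic acid cycle 0 of 16 genes were higher and the medians were -0.20 and -0.26. Fh1, fumarase, was 2.14-fold lower in the irradiated coculture, with 417.5 against 891.4 in the control. Of 8 genes of gluconeogenesis, Pck2 was 2.72-fold higher in conditioned medium, with 452.4 against 166.3, and none was 2-fold apart in the cocultures.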
